A study of Rattus norvegicus with 15 samples.

Results

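The mitochondrial ribosomal proteins are described here in dispersed rat islet cells that received a miR-17-5p mimic or a control mimic. They were taken as every gene whose symbol starts with Mrpl or Mrps followed by a digit, and 68 of the 17055 genes in the tables met this rule. Of these, 41 carry the name of a large subunit protein and 27 that of a small subunit protein. Large and small subunit genes are told apart below by this name alone. The name settles neither the subunit a protein lies in nor whether it belongs to the ribosome. Islets came from 10-day-old Sprague-Dawley rats in all 4 groups. After dispersal the cells received by transfection either a control miRNA mimic (control mRNA, n = 3, and control RISC, n = 3) or a miR-17-5p mimic (miR-17-5p mRNA, n = 5, and miR-17-5p RISC, n = 4). The mRNA libraries were made from poly(A) RNA. The RISC libraries, for which the labels mention no poly(A) selection, were made from RNA recovered by immunoprecipitating Ago2, the Argonaute protein that holds microRNAs in the RNA-induced silencing complex, and they came from the same kinds of transfected cells. No genotype differed between groups, and every group had been transfected. The labels name biological replicates, yet the numbers in titles and descriptions differ and nothing says which libraries share animals, so the p-values refer to library-to-library spread, part of which may be technical.

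Mitochondria keep their own ribosome, which translates the few proteins encoded by mitochondrial DNA, all of them core subunits of the respiratory chain and the ATP synthase. The proteins of this ribosome are all encoded in the nucleus, made in the cytosol and imported. Some descend from proteins of the bacterial ribosome and others were added in the course of mitochondrial evolution. Beta cells couple mitochondrial ATP production to insulin release, and the maturation of islet cells after birth includes a rise in mitochondrial oxidative capacity. A microRNA guides Ago2 to transcripts mainly through its seed, bases 2 to 8, and bound transcripts are repressed or degraded.

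The microRNA that was added is shown with its seed in capitals. RefSeq places it in the rat assembly GRCr8 at chr15:98587861-98587883, plus strand.
rno-miR-17-5p: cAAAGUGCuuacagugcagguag

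Of the 68 symbols, 67 were found as such in RefSeq's gene table and the other, Mrps36, as a synonym, and the genes lie on 17 chromosomes. A promoter window from 250 bases before to 50 bases after the gene start was present for 55 of them. These windows were searched on both strands for exact matches to 4 sequences. An element of 11 bases bound by the zinc finger factor YY1, spelled out in capitals below, was found in 7 of 55 windows (12.7%), against 1.96% of the windows of genes tested in mRNA and 0.809% of all windows. An element of 10 bases bound by nuclear respiratory factor 1, also spelled out in capitals and identical on both strands, was found in 4 (7.27%), against 2.00% and 0.954%. ACTTCCGG, bound by the ETS factor GABPA (also called nuclear respiratory factor 2), was found in 8 (14.5%), against 8.31% and 4.20%. TATAAA, the core of the TATA box, was also found in 8 (14.5%), against 6.81% and 15.3%. A match is a description of letters and not of binding. The windows of 30 bases around the matches to the first 2 elements are shown because their shares had the highest ratios to those of the windows of genes tested in mRNA among the 4 sequences, with the element in capitals and each window written along the strand of its gene.

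The 7 windows with the YY1 element lie at chr1:142116986-142117015 (minus strand, Mrpl46), chr2:32474224-32474253 (plus strand, Mrps27), chr2:52195866-52195895 (minus strand, Mrps30), chr5:68668041-68668070 (minus strand, Mrpl50), chr5:127074941-127074970 (minus strand, Mrpl37), chr9:21122404-21122433 (minus strand, Mrps10) and chr9:22367360-22367389 (minus strand, Mrps18a) of GRCr8. In all 7 the element was on the gene's own strand and began between base 1 and base 31 of the gene.
Mrpl46: gaagacggaAAGATGGCGGCgcccataggg
Mrps27: gtacgctccAAGATGGCGGCccccatggtg
Mrps30: cggaggacaAAGATGGCGGCtgccaggtat
Mrpl50: agcttgtcgAAGATGGCGGCgctgtgtgtg
Mrpl37: gcccgggcaAAGATGGCGGCgtccaggtag
Mrps10: tcagggcaccAAGATGGCGGCgcgcgcagc
Mrps18a: tgtgttcccAAGATGGCGGCcctcagggct

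The 4 windows with the element of nuclear respiratory factor 1 lie upstream of the gene start, at chr1:169575735-169575764 (minus strand, Mrpl17), chr9:88554908-88554937 (plus strand, Mrpl44), chr17:55260579-55260608 (plus strand, Mrpl32) and chr20:2842976-2843005 (plus strand, Mrps18b) of GRCr8.
Mrpl17: aggctctgatGCGCATGCGCaagcacccct
Mrpl44: agaagcacttGCGCATGCGCactatgctag
Mrpl32: tttgacctgtGCGCATGCGCagggaacctg
Mrps18b: tccttgtccgGCGCATGCGCagtcgttctt

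Many of these genes start near a gene on the other strand, and shared promoters were not tested. Of the 55 genes with a window, 18 (32.7%) started within 1000 bases of a gene on the other strand that points away from them, against 16.3% of genes tested in mRNA and 11.3% of all genes with a window. Mrpl46 of the large subunit and Mrps11 of the small subunit form one such pair, with starts 234 bases apart. The other pairs include Mrpl49 with Fau (186 bases), which encodes a cytosolic ribosomal protein fused to a ubiquitin-like protein, Mrpl32 with the proteasome gene Psma2 (210 bases) and Mrpl47 with the complex I gene Ndufb5 (244 bases). Because the libraries were not strand-specific, reads from overlapping genes cannot be told apart.

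Library depth ran from 3379456 to 21056240 counts in mRNA and from 4185123 to 13420403 in RISC. Levels below are CPM, the usual depth-scaled count, after TMM scaling over all 15 libraries, and 3 counts, taken as the floor of detection, correspond to 0.167 to 1.07 CPM depending on the library. The insulin genes Ins1 and Ins2 took 26.2% to 41.8% of mRNA counts, and markers of beta and of other endocrine cells were present in each group. The insulin genes took 0.947% to 1.97% of counts in RISC libraries, where the ribosomal RNA precursor Rn45s took 23.6% to 42.6%. With miR-17-5p in mRNA all 5 beta cell markers tested and 4 of 5 other endocrine markers were below control, and none was called. Median log2 fold changes were -0.48 and -0.57. Of the 8 marker genes of stellate cells and fibroblasts, 6 of 7 tested were called higher in mRNA, against 3.11% of all genes tested. Stellate and fibroblast markers summed to 9995 to 17962 CPM in control and 18797 to 42193 CPM in miR-17-5p mRNA libraries. In the RISC libraries they summed to 3882 to 8787 and 21166 to 23850 CPM. Macrophage markers summed to 0.159 to 53.5 CPM in control RISC and 161 to 272 CPM in miR-17-5p RISC. Endothelial markers summed to 37.3 to 62.8 CPM in control and 8.69 to 24.5 CPM in miR-17-5p mRNA. The part of these cell types in the results below was not tested. In bulk samples fewer cells of a type and less RNA per cell cannot be told apart.

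In poly(A) RNA the family was expressed nearly in full. Mrpl30 and Mrpl36 had 0 counts in all 15 libraries, Mrpl1 had at most 2 counts in any mRNA library, and the other 65 members had counts in each of the 8 mRNA libraries. Together the members stood at 1327 to 1514 CPM of the whole library, without TMM scaling, in control and at 1354 to 1880 in miR-17-5p mRNA libraries, ranges that overlapped. With the insulin genes and Rn45s left out of the totals, the shares were 2564 to 2615 and 2318 to 2779 CPM, which also overlapped. The highest share belonged to miR-17-5p replicate 2, in which the insulin genes took 28.6% of counts. Summed counts of the 41 large subunit genes were 1.53 ± 0.06 times (SD, n = 3) those of the 27 small subunit genes in control mRNA. In miR-17-5p mRNA the ratio was 1.54 ± 0.06 (SD, n = 5). This ratio was not scaled to the number of genes in each class, so it gives no level per gene. The plot of all members by library shows the nearly full expression in mRNA and the gaps in RISC.

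**Figure D1:**
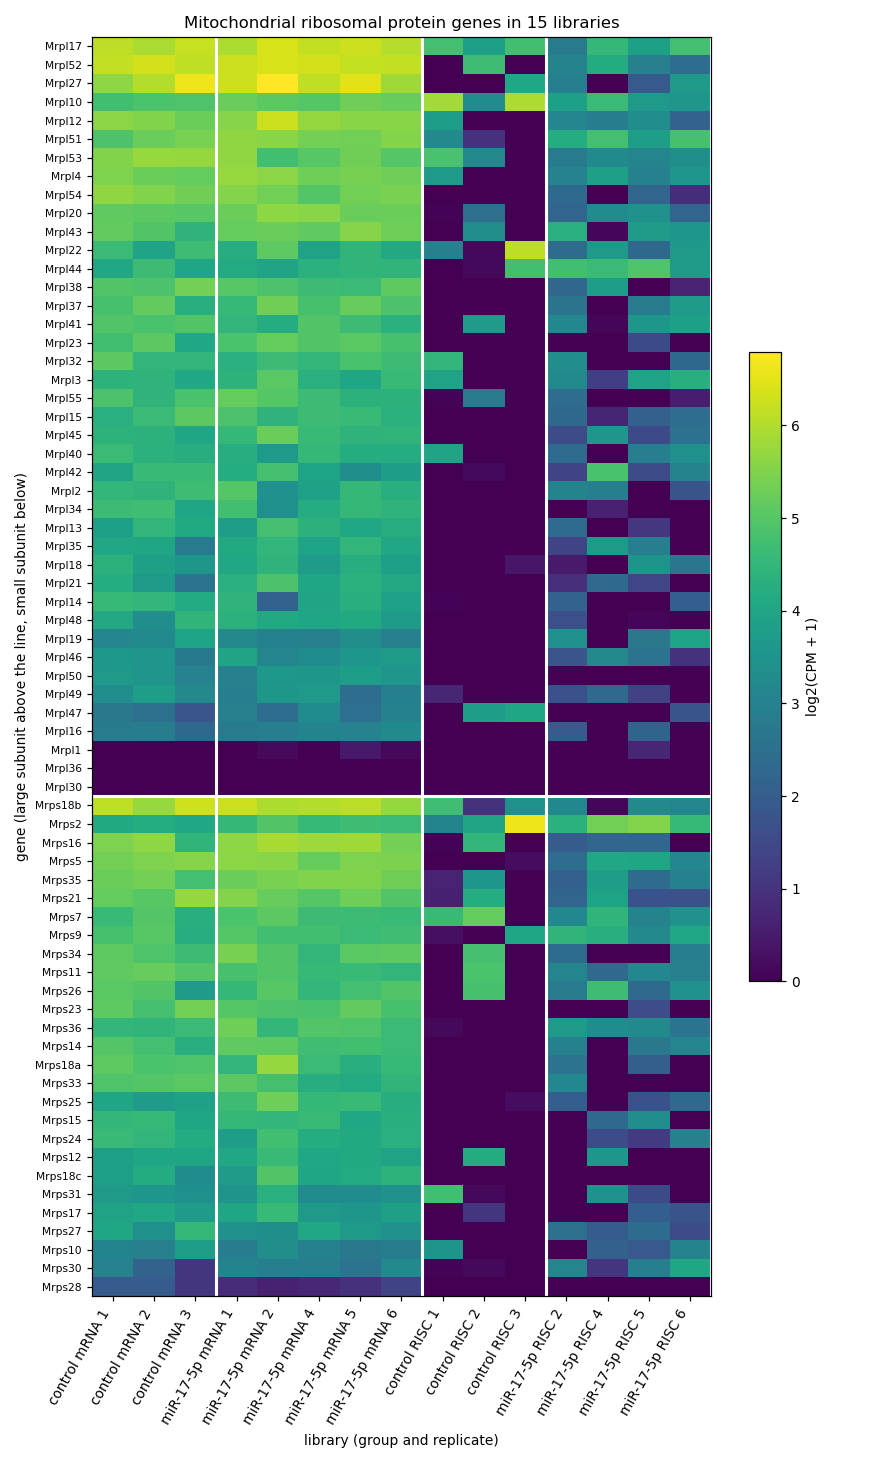
Level of each of the 68 genes (rows) in each of the 15 libraries (columns), as log2(CPM + 1), with large subunit genes above the white line and small subunit genes below it. The 8 mRNA columns are filled except for Mrpl1, Mrpl30 and Mrpl36, and the control RISC columns are at 0 for 42 to 56 genes.

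The members with the most counts over the mRNA libraries were Mrpl52, Mrpl27, Mrpl17 and Mrps18b. Mrpl52, a large subunit protein without a bacterial counterpart, stood at 70.5, 79.9 and 70.1 CPM in control and at 74.6, 81.9, 81.1, 72.9 and 71.4 CPM in miR-17-5p mRNA. Mrpl17, which has a bacterial counterpart, stood at 67.8, 60.04 and 73.7 CPM in control and at 61.5, 82.1, 70.7, 76.7 and 64.2 CPM with miR-17-5p. Mrpl27, the counterpart of a bacterial protein near the peptidyl transferase centre, varied more, with 48.4, 62.9 and 96.5 CPM in control and 76.2, 110, 69.0, 89.2 and 55.7 CPM with miR-17-5p. In none of these genes were the groups separated. The median coefficient of variation over the 65 members was 22.1% among control libraries and 20.4% among miR-17-5p libraries. The order of the members was similar between replicates (Spearman correlations across the 65 members 0.79 to 0.91 in control and 0.76 to 0.94 in miR-17-5p mRNA). Genes are not independent replicates, so this describes the libraries only.

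The first comparison asked whether adding miR-17-5p changed these transcripts in poly(A) RNA. No member passed the test. Log2 fold changes of the 65 tested members ran from -1.30 to 0.87, with 40 above 0 and 25 below and a median of 0.09, against 0.01 for all 11077 genes tested. By edgeR's quasi-likelihood test with Benjamini-Hochberg adjustment 0 of 65 members were higher and 0 were lower, while 3.87% of all genes tested were called, 3.11% higher and 0.767% lower. At an unadjusted p under 0.05 there were 2 members higher and 2 lower, against 1214 and 886 of the 11077 genes. The Wald test of DESeq2 called 1 member higher (Mrps25), and 5.59% of all genes. Limma-voom called 1 lower (Mrps11), and 3.91% of all genes. Large and small subunit genes had medians of 0.09 and 0.06. Members on a list of those with a bacterial counterpart (37 tested) had a median of 0.09. Members not on that list (28 tested) had a median of 0.07, and absence from it does not settle a protein's origin. Limma-voom put the median of the family at -0.01.

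**Figure D2:**
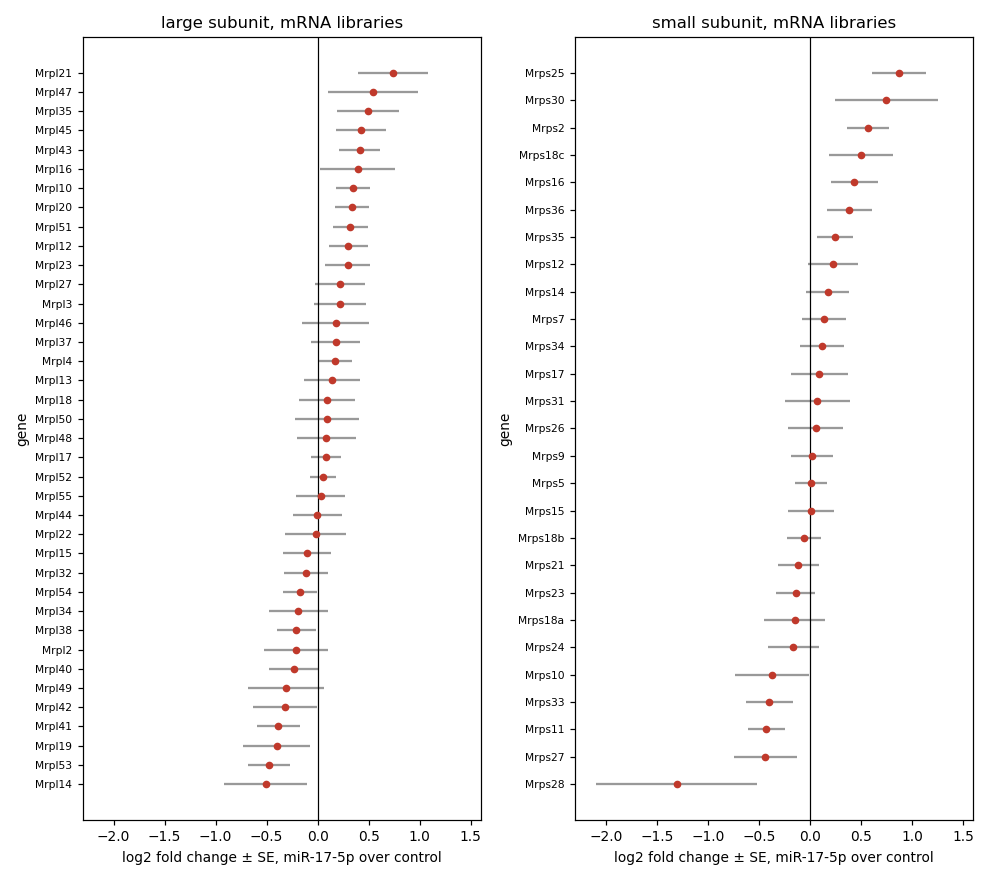
Log2 fold change of miR-17-5p over control in mRNA libraries with its standard error (3 control and 5 miR-17-5p libraries) for the 38 large subunit genes tested (left) and the 27 small subunit genes (right). Points lie on both sides of 0, and the gene furthest from it, Mrps28, has the widest error.

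The smallest p belonged to Mrps25, a small subunit protein without a bacterial counterpart. It stood at 14.9, 12.3 and 13.9 CPM in control and at 24.4, 37.9, 22.0, 22.9 and 17.9 CPM in miR-17-5p mRNA, so all 5 miR-17-5p libraries were above the 3 control libraries. The log2 fold change was 0.87 ± 0.26 (edgeR adjusted p = 0.0853). By DESeq2 the adjusted p was 0.0373, and over the 16 alternatives it ran from 0.0373 to 0.918.

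Mrps2, the counterpart of bacterial protein S2 at the join of the head and body of the small subunit, stood at 16.4, 17.5 and 15.7 CPM in control and at 21.8, 30.1, 22.4, 24.8 and 23.7 CPM with miR-17-5p. The groups again did not overlap, and the log2 fold change was 0.57 ± 0.20 (edgeR adjusted p = 0.148). Mrps11, the counterpart of bacterial S11 on the platform of the small subunit, lay the other way, with 34.4, 35.8 and 30.3 CPM in control and 27.3, 29.9, 22.5, 23.5 and 21.3 CPM with miR-17-5p. Every miR-17-5p value was below the control values, with a log2 fold change of -0.43 ± 0.18 (edgeR adjusted p = 0.223). Limma-voom gave Mrps11 an adjusted p of 0.0270, within a range of 0.0270 to 0.936 over 16 alternatives. In all, the groups did not overlap for 5 members higher with miR-17-5p (Mrpl10, Mrpl20, Mrpl45, Mrps2 and Mrps25) and 1 lower (Mrps11) of 65. Among all genes tested the corresponding shares were 8.42% and 6.64%.

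The 3 paralogs of small subunit protein S18 occupy different places. Mrps18c and Mrps18b belong to the small subunit and Mrps18a is found in the large subunit. By its name Mrps18a is still counted here with the small subunit genes. Mrps18b stood at 69.2, 52.9 and 78.3 CPM in control and at 75.1, 60.7, 64.0, 67.1 and 52.1 CPM with miR-17-5p. Mrps18a stood at 33.5, 28.0 and 29.5 CPM in control and at 21.3, 51.2, 23.7, 18.3 and 22.5 CPM with miR-17-5p. Mrps18c stood at 13.6, 17.0 and 8.90 CPM in control and at 12.5, 29.9, 14.97, 16.9 and 19.9 CPM with miR-17-5p. None of the paralogs separated the groups, and their log2 fold changes were -0.06 ± 0.17, -0.15 ± 0.30 and 0.50 ± 0.32 for Mrps18b, Mrps18a and Mrps18c. For both Mrps18a and Mrps18c the highest value of the group came from miR-17-5p replicate 2.

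Mrpl12, a stalk protein that is also known to bind the mitochondrial RNA polymerase, stood at 48.1, 44.1 and 37.7 CPM in control and at 46.4, 75.4, 51.5, 47.3 and 46.7 CPM with miR-17-5p (log2 fold change 0.30 ± 0.19, edgeR adjusted p = 0.428). Mrps12, the counterpart of bacterial S12 in the decoding centre, stood at 13.5, 14.9 and 15.3 CPM in control and at 15.7, 22.9, 15.8, 16.3 and 14.0 CPM with miR-17-5p (log2 fold change 0.22 ± 0.24, edgeR adjusted p = 0.668). Both pairs of groups overlapped. The 7 genes with the YY1 element in the window printed above had log2 fold changes between that of Mrps27 (-0.44 ± 0.31) and that of Mrps30 (0.75 ± 0.50), and none was called.

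The neighbouring parts of the system were tested in the same fit. None of the 8 further genes of the mitochondrial ribosome list was called, among them Dap3 of the small subunit (52.5 to 56.6 CPM in control and 30.4 to 47.5 CPM with miR-17-5p, log2 fold change -0.37 ± 0.17, edgeR adjusted p = 0.267), whose groups did not overlap. None of 19 assembly factors, 10 translation factors, 20 genes of mitochondrial DNA and RNA upkeep, 17 import genes and 8 regulators of mitochondrial biogenesis was called. Of the 74 cytosolic ribosomal protein genes tested, which serve as the comparison family, 4 were higher and none lower, with a median log2 fold change of 0.41. Of all genes tested 3.11% were higher and 0.767% lower. Whether the cytosolic family differed from the mitochondrial family was not tested.

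RISC libraries held far fewer of the members' transcripts. Together the members stood at 323 to 501 CPM of the whole library in control RISC and at 358 to 526 in miR-17-5p RISC, below every mRNA library. The mean share in mRNA was 3.48 times that in RISC in control cells and 3.51 times with miR-17-5p. After leaving out insulin genes and Rn45s it was 4.48 and 3.96 times, and on the TMM scale 5.34 and 4.46 times. Control and miR-17-5p RISC overlapped in CPM of the whole library and with the insulin genes and Rn45s left out (531 to 671 and 581 to 747 CPM). On the TMM scale they did not overlap (294 to 334 and 351 to 447 CPM).

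**Figure D3:**
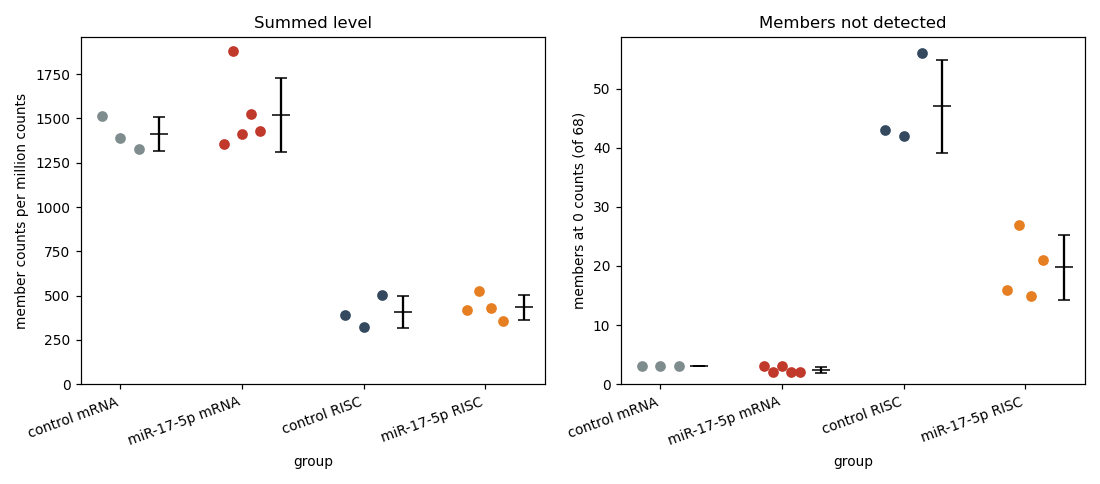
Left, summed level of all 68 members in CPM of the whole library. Right, number of members with 0 counts. Each point is a library and the bar is the mean ± SD of the group. RISC libraries lie between 323 and 526 CPM, below all mRNA libraries, and control RISC libraries lack 42 to 56 members against 15 to 27 in miR-17-5p RISC.

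The RISC groups differed in how many members they held. Control RISC libraries 1, 2 and 3 had 43, 42 and 56 members at 0 counts, and miR-17-5p RISC libraries 2, 4, 5 and 6 had 16, 27, 15 and 21, so these ranges did not overlap. Scaled to the lowest depth of the series, 3379456 counts, control RISC would hold 18.2 ± 5.93 members (SD, n = 3) and miR-17-5p RISC 47.4 ± 6.23 (SD, n = 4). The same order held over the transcriptome. Of all genes tested in mRNA, 34.2% to 50.05% were at 0 in a control RISC library and 7.39% to 20.3% in a miR-17-5p RISC library. Of the 65 members tested in mRNA, 39 to 53 were at 0 in a control RISC library and 13 to 24 in a miR-17-5p RISC library. In all 3 control RISC libraries 25 of 65 members (38.5%) were at 0, against 20.7% of all genes tested in mRNA. Only Mrpl10, Mrpl17, Mrpl22, Mrps2 and Mrps18b, 5 of 65 (7.69%), had counts in all 3, against 40.0% of genes. In miR-17-5p RISC 29 of 65 (44.6%) had counts in all 4 libraries, against 73.2% of genes, and Mrps18c, Mrpl50 and Mrps28 were at 0 in all 4. These shares are descriptions of the libraries and were not matched for level or transcript length.

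The counts that were present in control RISC were concentrated in few genes, and not the same ones in each library. The 5 members with the most counts carried 54.9%, 47.0% and 83.2% of the family's counts in control RISC libraries 1, 2 and 3, against 28.1% to 31.8% in miR-17-5p RISC and 18.1% to 23.2% in mRNA. Mrps2 stood at 7.40, 14.6 and 97.4 CPM in control RISC and at 19.3, 39.7, 45.2 and 22.4 CPM in miR-17-5p RISC. Mrps11 was at 0, 28.2 and 0 CPM in control RISC and at 7.47, 4.05, 8.05 and 6.72 CPM in miR-17-5p RISC. Mrps12 was at 0, 17.2 and 0 CPM in control RISC and at 0, 11.01, 0 and 0 CPM in miR-17-5p RISC, that is, in 1 library of each group. The Spearman correlation across the 65 members was 0.15 to 0.27 between control RISC libraries and 0.29 to 0.68 between miR-17-5p RISC libraries. The ratio of large to small subunit counts was 2.14, 0.50 and 1.73 in the control RISC libraries and 1.26 to 1.68 in the miR-17-5p RISC libraries.

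In RISC the comparison of miR-17-5p with control asked whether Ago2 held more or less of each transcript after the mimic was added. No member was called: 0 of 47 members tested passed edgeR's test in either direction, where 0.371% of 9443 genes were called, 0.339% higher and 0.0318% lower. At an unadjusted p under 0.05 there were 16 members higher and 0 lower, against 1673 and 226 of the 9443 genes. Of the 16, 11 were at 0 in all control RISC libraries. Such members passed the filter only through miR-17-5p RISC and could only come out higher, so the counts and the median of the tested members are descriptions and support nothing. The Wald test of DESeq2 called 10 members higher, and 12.7% of all genes. Without control replicate 2, 3 of 55 members were called higher (Mrpl52, Mrps11 and Mrps26), and 11.4% of all genes. Without miR-17-5p replicate 4, 5 of 40 were (Mrpl15, Mrpl37, Mrpl45, Mrps14 and Mrps27), and 5.99% of all genes. The median log2 fold change was 1.36, against 0.27 for all genes. It moved between 0.51 and 6.96 as single libraries were left out. In 9 of the 47 the groups did not overlap, all with miR-17-5p higher, against 17.6% of all genes tested, and 4 of the 9 (Mrpl15, Mrpl45, Mrpl46 and Mrps27) were at 0 in control.

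The 3 members with the smallest p were among those at 0 in every control RISC library, which could only come out higher. A fold is given as a bound against 3 counts per library. Here and below such bounds cover counting error only, not the spread between RISC libraries. Mrps27, a small subunit protein without a bacterial counterpart, stood at 4.65, 2.91, 4.30 and 1.96 CPM in miR-17-5p RISC, at least 10.7-fold higher. Mrpl15, the counterpart of a bacterial large subunit protein, stood at 3.86, 0.616, 3.27 and 4.34 CPM, at least 9.36-fold higher. Mrpl45, a large subunit protein near the exit tunnel that holds the ribosome at the inner membrane, stood at 1.96, 10.7, 1.87 and 4.76 CPM, at least 14.9-fold higher. Each had an edgeR adjusted p of 0.0725. Over the alternatives it ran from 0.0156 to 0.310 for Mrps27, from 0.0347 to 0.322 for Mrpl15 and from 0.00619 to 0.325 for Mrpl45. In mRNA none of the 3 was called.

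Relative to poly(A) RNA, 38 of 64 members were lower in RISC in miR-17-5p cells and 30 of 63 in control cells, and none was called higher with either mimic. The control calls did not hold without control replicate 1. In miR-17-5p cells 38 of 64 members tested were lower in RISC and 0 higher, where 21.8% of 10871 genes were lower and 21.7% higher. Of the 38, 36 had counts in both library types, and the groups did not overlap for 53 members, all lower in RISC, against 28.6% of all genes. The median log2 fold change was -2.29, against -0.15 for all genes. Split by name, 21 of 38 large and 17 of 26 small subunit genes were lower. Among members on the list of those with a bacterial counterpart 23 of 36 were lower, and among the members not on it 15 of 28. DESeq2 size factors moved the median of all genes by -0.12, and the members' median was then -2.42. With each replicate number left out, 26 to 41 members were lower, a range given without the matching shares of all genes.

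**Figure D4:**
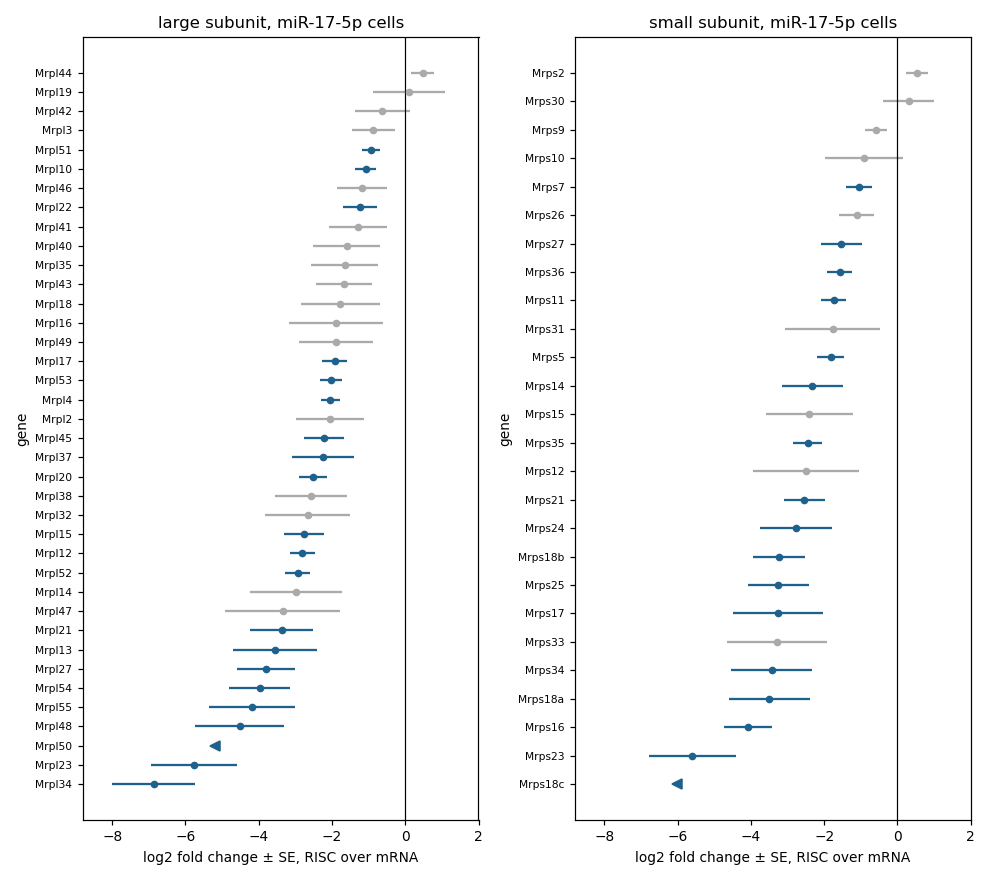
Log2 fold change of RISC over mRNA in miR-17-5p cells (4 RISC and 5 mRNA libraries) with its standard error for 38 large (left) and 26 small subunit genes (right). Blue genes were called lower, grey genes were not called, and arrowheads mark bounds for the genes at 0 in all 4 RISC libraries, Mrpl50 and Mrps18c. Only Mrpl44, Mrpl19, Mrps2 and Mrps30 lie right of 0.

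Mrps18c had the smallest p. It was at 0 in all 4 miR-17-5p RISC libraries and at 12.5 to 29.9 CPM in mRNA, at least 64.9-fold lower (edgeR adjusted p = 3.7e-05). Mrpl50, a large subunit protein without a bacterial counterpart, was also at 0 in RISC and at 6.74 to 12.9 CPM in mRNA, at least 36.5-fold lower (edgeR adjusted p = 2.1e-04). The other leading genes were well represented in mRNA and low, but present, in each RISC library.

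Mrpl52 stood at 7.27, 17.1, 6.83 and 4.48 CPM in miR-17-5p RISC against 71.4 to 81.9 CPM in mRNA, with a log2 fold change of -2.93 ± 0.35 (edgeR adjusted p = 4.3e-05). Mrpl12 stood at 7.86, 6.34, 9.07 and 3.36 CPM in RISC against 46.4 to 75.4 CPM in mRNA (-2.81 ± 0.34, edgeR adjusted p = 4.8e-05). Mrpl4, the counterpart of a bacterial large subunit protein, stood at 7.07, 13.5, 6.92 and 10.8 CPM in RISC against 38.2 to 52.9 CPM in mRNA (-2.04 ± 0.27, edgeR adjusted p = 9.5e-05). These RISC values were all below the mRNA values. Mrpl53, which has no bacterial counterpart, stood at 6.02, 8.36, 7.48 and 9.52 CPM in RISC against 25.7 to 50.1 CPM in mRNA (-2.02 ± 0.30, edgeR adjusted p = 2.2e-04). For Mrpl53 too the groups did not overlap.

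Of the abundant members, Mrpl27 had a log2 fold change of -3.80 ± 0.80, Mrps18b of -3.24 ± 0.70 and Mrpl17 of -1.93 ± 0.35, all called lower. Mrps18a was lower by -3.50 ± 1.10 (edgeR adjusted p = 0.0225), with 2 of 4 RISC libraries at 0. Leaving libraries out moved its adjusted p up to 0.0648. Mrps12 was not called (edgeR adjusted p = 0.190). The members with a value above 0 were Mrps2 (0.54 ± 0.30), Mrpl44, a large subunit protein related to ribonuclease III (0.47 ± 0.32), Mrps30 (0.31 ± 0.70) and Mrpl19 (0.11 ± 0.99), chosen here after their values were seen, and none of them was called. Mrpl44 stood at 25.6, 23.6, 29.4 and 11.9 CPM in miR-17-5p RISC and at 14.8 to 20.9 CPM in mRNA, ranges that overlapped.

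In control cells 30 of 63 members tested were lower in RISC and 0 higher, where 22.3% of 10170 genes were lower and 5.96% higher. The groups did not overlap for 50 members, all lower in RISC, against 39.9% of genes. Of the 30, 24 were at 0 in all 3 control RISC libraries. The median log2 fold change was -4.37 with such genes at their bound, and the fitted median of -5.23 compares with -0.69 for all genes. DESeq2 size factors moved the median of all genes by -0.18. Without control replicate 1, which removes its mRNA and its RISC library, 0 members and 0% of all genes were called lower, and the edgeR adjusted p of the leading genes was then 0.0619. Limma-voom called 49 members lower, and 31.9% of all genes.

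The 6 members with the smallest p in control cells were all large subunit genes. Mrpl54, which has no bacterial counterpart, was at 49.9, 44.5 and 38.8 CPM in mRNA and at 0 in RISC, at least 138-fold lower (edgeR adjusted p = 0.0108). Mrpl19, the counterpart of bacterial L19, was at 7.88, 8.41 and 14.2 CPM in mRNA and at 0 in RISC, at least 31.5-fold lower. Mrpl50 was at least 30.4-fold, Mrpl46 at least 28.7-fold and Mrpl16 at least 16.5-fold lower, each with 0 counts in RISC. All these bounds leave out the wide spread between control RISC libraries. Mrpl14 had 1 count over the control RISC libraries, and its pooled ratio of RISC to mRNA was 0.0014 (95% counting interval 3.6e-05 to 0.0079). The edgeR adjusted p of these 6 genes lay between 0.0083 (Mrpl16) and 0.0108 (Mrpl54). With a replicate block it was 0.156 for each of them.

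The abundant members were not called in control cells. Mrpl17 stood at 26.0, 13.4 and 25.5 CPM in control RISC, below its mRNA values, with a log2 fold change of -1.63 ± 0.51 (edgeR adjusted p = 0.0676, and 1.4e-05 to 0.376 over 11 alternatives). Mrpl52 stood at 0, 24.6 and 0 CPM and Mrpl27 at 0, 0 and 15.6 CPM in control RISC. Mrps18b stood at 24.98, 0.971 and 9.57 CPM. All these values were below those in mRNA, and the spread between the 3 RISC libraries was wide. Mrpl10 (56.6, 8.85 and 61.1 CPM in RISC, 25.6 to 29.5 CPM in mRNA), chosen after its values were seen, was one of 4 members with a fitted value above 0.

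**Figure D5:**
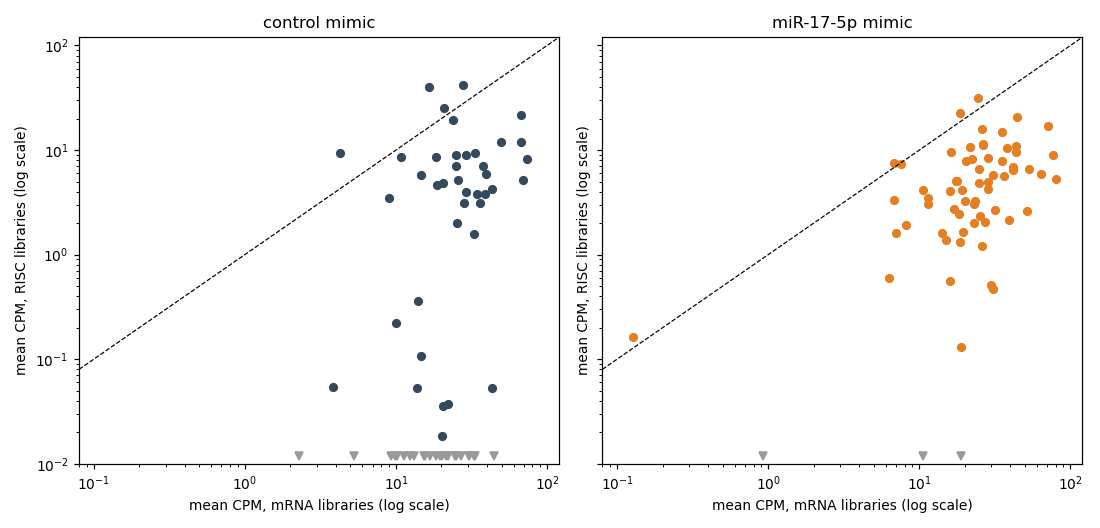
Mean CPM of each member in RISC libraries against mean CPM in mRNA libraries, both on log scales, in control cells (left, n = 3 and 3) and miR-17-5p cells (right, n = 4 and 5). The dashed line marks equal values and grey triangles at the bottom mark members at 0 in every RISC library. Most points lie below the line in both panels, and 25 of the members tested in mRNA are at 0 in control RISC against 3 in miR-17-5p RISC.

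Cytosolic ribosomal protein genes, the comparison family, were also mostly lower in RISC in miR-17-5p cells. Of 74 cytosolic ribosomal protein genes 72 were lower in RISC, with a median log2 fold change of -4.10, and in control cells 33 of 73 were lower, with a median of -4.74. The shares of all genes tested that were lower were 21.8% with miR-17-5p and 22.3% in control cells. Of 8 genes listed as partners of the mitochondrial ribosome under other names 6 were lower. Chchd1, a small subunit protein, was at 24.4 to 36.7 CPM in mRNA and at 0 in all 4 RISC libraries, at least 108-fold lower. Gadd45gip1, a large subunit protein, had a log2 fold change of -4.24 ± 0.44, Mrp63 of -3.90 ± 1.38, Aurkaip1 of the small subunit of -2.88 ± 0.63 and Dap3 of -1.51 ± 0.30. Oxa1l, the membrane insertase to which the ribosome docks, had -0.80 ± 0.18. Ict1, a release factor built into the large subunit, and Ptcd3 of the small subunit were not called (-1.18 ± 0.90 and -0.89 ± 0.80).

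Genes that act around the ribosome were called in both directions in miR-17-5p cells, where 21.8% of all genes tested were lower and 21.7% higher. The shares of translation factors, upkeep genes and assembly factors called were near or below these. Of 17 import genes 11 were lower in RISC, among them Timm23 (-2.18 ± 0.22), the channel of the inner membrane, and Tomm7 (-4.37 ± 0.56), while 2 were higher, the receptor Tomm70a (1.66 ± 0.32) and the chaperone Hspa9 (1.05 ± 0.16). Of 10 translation factors the elongation factor Gfm1 (0.67 ± 0.25) and also Gfm2 (0.89 ± 0.26) were higher and Guf1 (-3.72 ± 1.25) was lower. Of 20 genes of mitochondrial DNA and RNA upkeep 2 were higher, Lrpprc (1.11 ± 0.22), which stabilises mitochondrial mRNA, and the DNA polymerase Polg (0.55 ± 0.16), and 5 were lower, among them the RNA polymerase Polrmt (-2.19 ± 0.42). Of 19 assembly factors 1 was higher (Rpusd3, 0.80 ± 0.29) and 3 were lower (Trub2, Ddx28 and Ngrn). Among 9 regulators of mitochondrial biogenesis 4 were higher, the coactivator Ppargc1b (3.41 ± 0.52) and the factors Yy1 (1.83 ± 0.24), Myc (1.05 ± 0.27) and Gabpa (1.04 ± 0.25), and the receptor Esrra (-3.22 ± 0.66) was lower. In control cells the same lists had 0 genes higher, against 5.96% of all genes tested. The counts lower were 1 of 8 partner genes, 5 of 17 import genes, 1 of 8 translation factors, 6 of 20 upkeep genes, 5 of 18 assembly factors and 1 of 8 regulators. Of all genes tested in control cells 22.3% were lower.

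Whether the mimic's effect differed between RISC and mRNA was tested in a fit of all 15 libraries, which shares control libraries with the comparisons above. In this test 17 of 65 members were higher and 0 lower, meaning a larger rise or smaller fall in RISC than in mRNA, where 13.0% of 11418 genes were higher and 0.394% lower. Members at 0 in all control RISC libraries could not come out lower in RISC, so nothing is drawn from the direction of these calls. Each of the 6 members with the smallest p had 0 to 2 counts in any control RISC library, and their fitted differences have no upper bound, so levels are given. Mrps5, the counterpart of bacterial S5, was at 0, 0 and 0.159 CPM in control RISC and at 4.52, 15.9, 15.2 and 7.84 CPM in miR-17-5p RISC (edgeR adjusted p = 3.1e-04). Mrps36, which RefSeq names Kgd4 and which is known as a subunit of the alpha-ketoglutarate dehydrogenase complex, was at 0.111, 0 and 0 CPM and at 11.6, 8.80, 8.33 and 5.04 CPM (edgeR adjusted p = 5.7e-04). Mrpl46 was at 0 in control RISC and at 2.49, 8.10, 5.05 and 0.980 CPM with miR-17-5p (edgeR adjusted p = 0.0016). In each of these 3 genes all miR-17-5p RISC libraries were above all control RISC libraries. Mrps27, Mrpl15 and Mrpl45, with levels given above, had edgeR adjusted p of 4.1e-04, 9.8e-04 and 0.0012.

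In mRNA these 6 genes had log2 fold changes from -0.44 (Mrps27) to 0.42 (Mrpl45). Limma-voom called 0 members and 0% of all genes higher in this test, and the replicate block 0 members and 0.264% of all genes. DESeq2 called 1 member lower (Mrpl10), and 2.40% of all genes. Over the alternatives the adjusted p of Mrps5 ran from 3.7e-09 to 0.414. For the S18 paralogs and for Mrpl12, Mrps12, Mrpl17, Mrpl27 and Mrpl52 the difference was not called. Among the lists, 13 of 74 cytosolic ribosomal protein genes were higher and 3 lower, 5 of 17 import genes were higher, and among partner genes Gadd45gip1 was higher and Chchd1 lower. Of all genes tested 13.0% were higher and 0.394% lower.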

How the data were processed

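The 15 libraries were deposited as raw counts per gene. Per the submitters' processing notes, the authors used TopHat2 2.0.10 and Bowtie2 with rat build rn5, and HTSeq for the counts. For Bowtie2 and HTSeq a version is not given in the sources used here. Reads were single-end without strand information, per the labels. The summary lines of each table stayed out of the tests. Alignments that were not unique equalled 15.0% to 31.2% of a library's counts, so members with near-identical copies are uncertain. Both tables of the whole series repeat these counts (15 of 15 columns equal 1 library each) and were not used.

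Groups came from the titles. Counts were fitted in R 4.3.3 with edgeR 4.0.16 (TMM, filterByExpr, robust quasi-likelihood F-tests, two-sided). A gene was called at a Benjamini-Hochberg adjusted p under 0.05 over all genes tested. Each alternative changed 1 choice: the scaling (size factors of DESeq2, upper quartile, or without insulin genes and Rn45s), the filter (none, or a mean count of 50), the tool (DESeq2 1.42.0, or voom with quality weights in limma 3.58.1), a replicate block, or a replicate left out. In fits of both library types a replicate was left out of both. The edgeR script was tested on simulated data, with large changes placed only in genes of higher level. That test does not cover small changes or members near 0. Folds against a group at 0 use a floor of 3 counts per library. Floors and intervals (95%) cover counting error only.

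Named genes were the called members (the 6 with the smallest p where over 12 were called, the 3 with the smallest p where none was), the 4 members with the most mRNA counts, the S18 paralogs, Mrpl12, Mrps12, up to 4 called genes per list, and all genes of the partner list. Members, lists and this rule were chosen with earlier results of these data known. Within every group, libraries differed by more than counting noise. Chi-square per degree of freedom was 6.78 to 323 between pairs of libraries, over all genes above a minimum count rather than the members alone.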

Additional observations from a re-analysis of the deposited data

Results flagged for a closer look

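Among 52 groups of 4 or 5 libraries, which cover 24 named members and 3 summed measures and leave out groups wholly at 0, 6 had 1 library whose gap to the nearest other was large for the range of the group, and chance gives about 1 in 20. Of these, 4 were the highest value of miR-17-5p replicate 2 in mRNA. It stood at 51.2 CPM for Mrps18a (others 18.3 to 23.7), 75.4 CPM for Mrpl12 (others 46.4 to 51.5), 22.9 CPM for Mrps12 (others 14.0 to 16.3) and 37.6 CPM for Mrpl45 (others 20.4 to 22.7). The other 2 concerned miR-17-5p replicate 4 in RISC, which was lowest for Mrps18b (0.088 CPM, others 7.56 to 8.23) and had the only counts for Mrps12 (11.01 CPM, others 0).

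By the test over all 15 libraries, the mimic's effect was called different between RISC and mRNA for 6 named members. These were the 6 with the smallest p, and each had 0 to 2 counts in any control RISC library. They could hardly come out lower in RISC, so nothing is drawn from the direction. The edgeR adjusted p was 3.1e-04 for Mrps5, 4.1e-04 for Mrps27, 5.7e-04 for Mrps36, 9.8e-04 for Mrpl15, 0.0012 for Mrpl45 and 0.0016 for Mrpl46. With a replicate block these values were 0.0855 to 0.155, and by limma-voom 0.414 to 0.484, so none passed.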

How the results depend on the processing

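In mRNA 0 members were called under each alternative except DESeq2 (1 higher, Mrps25) and limma-voom (1 lower, Mrps11). In RISC DESeq2 called 10 higher (12.7% of all genes), and leaving out a replicate gave 0 to 5 (5.99% of all genes where 5 were called). Lower in RISC than in mRNA in control cells were 19 of 51 members with a mean of at least 50 counts (9.74% of all genes), 49 of 63 by limma-voom (31.9%), 0 to 33 with a replicate left out and 0 with the replicate block (1.64%). In miR-17-5p cells the count was 26 to 41 with a replicate left out and 32 with the replicate block. The difference between RISC and mRNA gave 0 higher by limma-voom, 0 higher with the replicate block, 1 lower by DESeq2 and, with a replicate left out, 13 to 25 higher and 0 to 1 lower. The share of all genes called also moved with the setting. In control cells it was 0% lower without control replicate 1 and 31.9% lower by limma-voom. Counts printed without such a share give the range only and are not read as a result about the members. Replicate numbers were not taken to pair the libraries. Same-numbered libraries had correlations of deviations from -0.18 to 0.05. Between RISC and mRNA the best match had the same number for control replicate 2 and miR-17-5p replicates 4, 5 and 6. It did not for control replicates 1 and 3 and miR-17-5p replicate 2, nor between the 2 mimics. Correlations this weak cannot decide whether libraries were paired. No paired analysis was possible because the RISC groups share fewer than 2 numbers, for miR-17-5p against control in RISC.

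Some log2 fold changes that were not called changed sign. In mRNA limma-voom put the members' median at -0.011, Mrpl52 at -0.013 and Mrps18b at 0.0059, and the replicate block put Mrps18b at 0.14 and Mrps18a at 0.092. With a replicate left out, Mrps18b in mRNA ran from -0.21 to 0.075. For miR-17-5p against control in RISC, Mrpl27 was at -0.107 (DESeq2 size factors), -0.090 (upper quartile) and -0.109 (DESeq2). With a replicate left out it ran from -0.72 to 8.97, Mrpl52 from -0.49 to 9.69 and Mrps18b from -1.49 to 0.13. In the difference between RISC and mRNA, Mrpl52 was at -0.052 (DESeq2 size factors) and -0.053 (DESeq2), and Mrpl27 at 0.092 (mean of at least 50 counts), 4.33 (limma-voom) and 3.31 (replicate block). With a replicate left out, Mrpl52 ran from -0.43 to 9.39, Mrpl27 from -1.01 to 8.29, Mrps18b from -1.12 to 0.53, Mrpl12 from -0.094 to 8.60 and Mrps12 from -8.997 to 7.54. The cause of these changes was not tested.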
